A study of Mus musculus with 2 samples.

Results

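The peptide urocortin 3, encoded by Ucn3, and its receptor genes Crhr1 and Crhr2 were followed across the cells of the mouse pancreatic islet. These 3 genes of 33038 listed in the count tables were taken by symbol with no cutoff on a measured value. Earlier results of these data were known when they were chosen. The islets came from male C57BL/6J mice of 8 weeks, labelled control, with no other allele or treatment named, and were dissociated into single cells and profiled by RevGel-seq, in which each cell is tied to a barcoded bead inside a gel before lysis. The study's methods describe both libraries, called library 1 and library 2 here, as technical replicates of the same islets, so every error below covers preparation and sequencing and no difference between animals. Library 1 held 735 cells and 15931154 unique molecular identifiers (UMIs, each 1 counted transcript), and library 2 held 748 cells and 17440292 UMIs.

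Cells were grouped by which of insulin (Ins1 plus Ins2), glucagon (Gcg), somatostatin (Sst) and pancreatic polypeptide (Ppy) made up at least 1% of their UMIs. Insulin alone reached this threshold in 182 cells of library 1 and 190 of library 2. For Gcg alone the numbers were 182 and 174, for Sst alone 35 and 23, and for Ppy alone 54 and 68. Gcg with Ppy was found in 65 and 86 cells, Sst with Ppy in 77 and 71, insulin plus at least 1 other hormone in 37 and 27, and none of the hormones in 91 and 92. The remaining 12 and 17 cells held Gcg with Sst, with or without Ppy, and were left out of the tests. All 8 beta-cell markers were detected in the insulin-only cells, all 6 alpha-cell markers in the Gcg-only cells, all 4 delta-cell markers in the Sst-only cells and all 3 gamma-cell markers in the Ppy-only cells. The marker lists include the hormones that set the groups. The same markers were all detected in cells with none of the hormones too, so their detection is no evidence of a group's identity. The delta-cell marker Ghsr, the ghrelin receptor gene, stood at 0 in insulin-only and Gcg-only cells. Cells with none of the hormones carried endothelial markers at 5568 and 7304 CPM (UMIs per 1000000 UMIs of the group) and leukocyte markers at 2846 and 2912 CPM.

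Urocortin 3 belongs to the corticotropin-releasing factor family of peptides and is stored with insulin in the granules of mouse beta cells, where its gene marks maturity. Its preferred receptor, CRHR2, couples to Gs and raises cyclic AMP, and in the islet it is known from delta cells, whose somatostatin acts back on neighbouring cells through receptors that couple to Gi. CRHR1 prefers corticotropin-releasing factor and urocortin and binds urocortin 3 weakly.

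On GRCm38, Ucn3 lies on chromosome 13 at chr13:3940688-3945349 on the minus strand, Crhr2 at chr6:55090049-55133016 on the minus strand and Crhr1 at chr11:104132855-104175523 on the plus strand. None of these genes overlapped another gene of the GENCODE M21 annotation, and reads were counted over exons. The 250 bases before the RefSeq start (build GRCm38.p6) of the ligand gene and of its main receptor gene are shown because their transcripts were found in different cells of the same islets. They are read 5′ to 3′ on the minus strand, at chr13:3945350-3945599 for Ucn3 and chr6:55133017-55133266 for Crhr2. Capitals mark TAAT on either strand, the core letters of many homeodomain sites, in the Ucn3 window, and TATAAA, the TATA box letters, in the Crhr2 window.
Ucn3: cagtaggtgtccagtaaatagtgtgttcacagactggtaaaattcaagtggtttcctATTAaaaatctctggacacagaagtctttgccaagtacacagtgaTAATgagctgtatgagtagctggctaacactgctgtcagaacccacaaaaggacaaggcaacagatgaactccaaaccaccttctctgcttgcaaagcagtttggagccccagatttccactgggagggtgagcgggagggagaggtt
Crhr2: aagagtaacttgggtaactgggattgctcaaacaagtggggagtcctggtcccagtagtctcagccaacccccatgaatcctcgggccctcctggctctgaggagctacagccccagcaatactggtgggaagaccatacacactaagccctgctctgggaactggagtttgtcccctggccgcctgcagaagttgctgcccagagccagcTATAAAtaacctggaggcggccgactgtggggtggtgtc
The Ucn3 window held TAAT at 2 places and no TATAAA, while the Crhr2 window held TATAAA once, 34 to 39 bases before the start, and no TAAT. These letter strings do not overlap each other. Over all 32851 RefSeq windows of this length, 54.9% held TAAT and 12.4% held TATAAA on either strand.

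Ucn3 was concentrated in cells with insulin. Of 3052 Ucn3 UMIs, 2742 (89.8%) lay in insulin-only cells and 2979 (97.6%) in cells with insulin at the threshold, which were 29.4% of all cells. In insulin-only cells Ucn3 stood at 341 CPM in library 1 and 311 in library 2, or 326 ± 21.2 (SD, n = 2). Gcg-only cells, the alpha-cell group, held 6 Ucn3 UMIs in each library, or 1.73 and 1.58 CPM. The insulin-only level was therefore 197-fold higher in library 1 (95% counting interval 90.5 to 539) and 196-fold higher in library 2 (89.9 to 535), and the groups did not overlap. In the fit across all genes (edgeR on summed counts, with scaling that discounts the hormone UMIs) the log2 difference was 7.93 ± 0.78 (SE, adjusted p = 8.74e-05), where 24.8% of the 14970 genes tested were called.

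Sst-only cells held 0 and 1 Ucn3 UMIs. Pooled over libraries, the insulin-only level was 272 times that of Sst-only cells, with a wide counting interval of 48.9 to 10764 because of that single UMI. The edgeR log2 difference was 8.73 ± 1.26 (SE, adjusted p = 0.00174), against a background of 15.2% of genes called. Ppy-only cells, the gamma-cell group, held 23 Ucn3 UMIs in library 1 and 2 in library 2, or 12.8 and 0.755 CPM. Of the 23, 20 sat in a single cell with 3.56% of its UMIs from Ppy and 0.348% from insulin, and without the top cell the level in library 1 was 1.70 CPM. The insulin-only level was 26.6-fold higher in library 1 and 411-fold higher in library 2. The log2 difference of insulin-only over Ppy-only cells was 5.96 ± 0.71 (SE, edgeR adjusted p = 0.000399), with 20.5% of genes called.

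The groups without insulin were low and could not be ordered. Gcg+Ppy cells held 1 and 1 Ucn3 UMIs and Sst+Ppy cells 3 and 1, and cells with none of the hormones held 21 and 2. Of the 21, 16 were in 1 cell that Scrublet called a doublet. Against the cells with none of the hormones, the insulin-only log2 difference was 6.41 ± 0.72 (SE, edgeR adjusted p = 6.69e-05), where 56.8% of genes were called. Cells with insulin plus another hormone came second, at 98.1 and 177 CPM. Both values lay below both insulin-only values, and that difference was not tested.

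**Figure D1:**
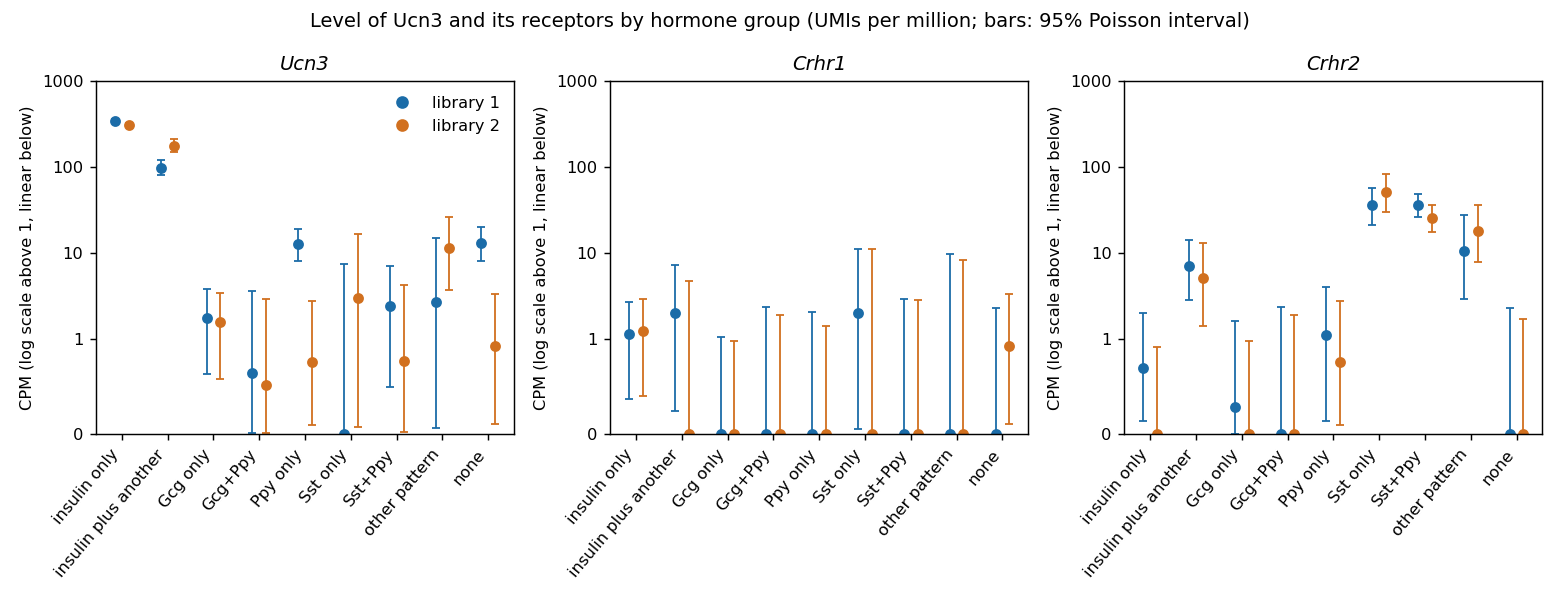
Level of Ucn3, Crhr1 and Crhr2 in CPM (y axis, log scale above 1 and linear below) in each hormone group (x axis), 1 point per library with its 95% Poisson counting interval. Ucn3 stands at 341 and 311 in insulin-only cells, Crhr2 at 35.8 and 51.2 in Sst-only cells, and Crhr1 at or below 1.99 in every group.

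Counted by cells, 80.8% of insulin-only cells in library 1 (exact 95% interval 74.3% to 86.2%) and 82.6% in library 2 (76.5% to 87.7%) had at least 1 Ucn3 UMI. The share in Gcg-only cells was 3.30% and 3.45%, and in cells with none of the hormones 5.49% and 2.17%. Median depth was 19642 and 17170 UMIs in insulin-only cells, 16414 and 19534 in Gcg-only cells, and 13195 and 15015 in cells with none of the hormones. With each cell thinned to 4000 UMIs, 62.6% of insulin-only cells of either library kept a Ucn3 UMI and 0 of 182 and 0 of 174 Gcg-only cells did. Cells with insulin plus another hormone had Ucn3 in 40.5% and 40.7% of cells, or 21.6% and 22.2% after thinning. All intervals on counts and shares here cover counting error only.

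**Figure D2:**
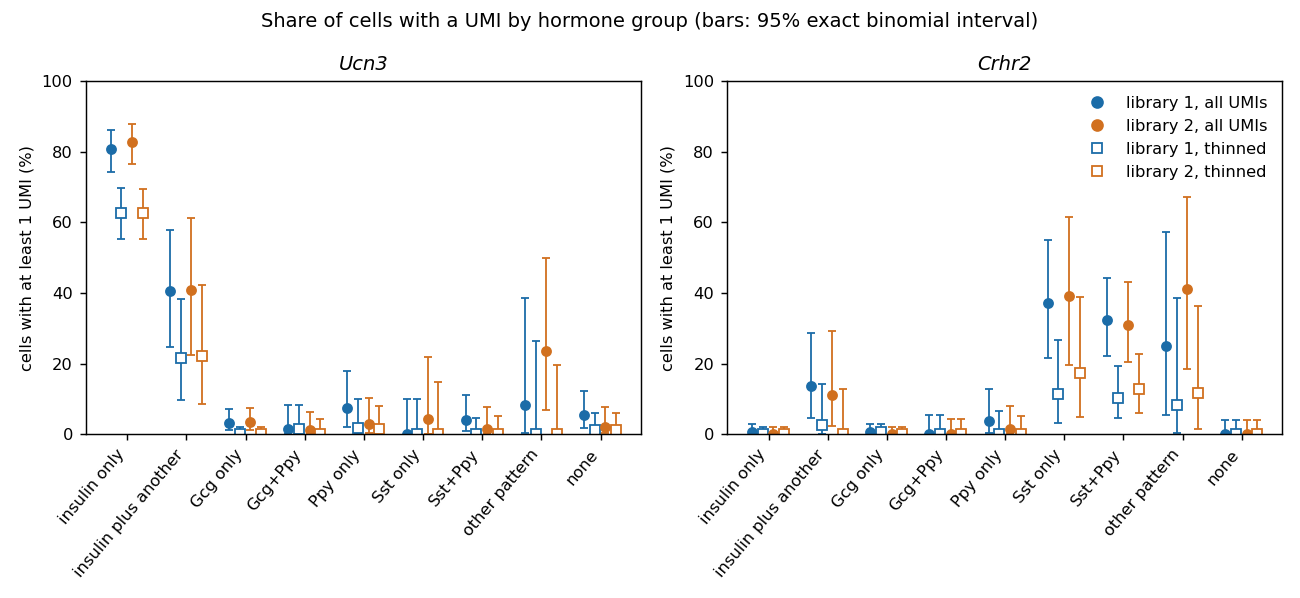
Share of cells with at least 1 UMI of Ucn3 and Crhr2 (y axis, %) in each hormone group (x axis), for all UMIs (filled circles) and with each cell thinned to 4000 UMIs (open squares), per library with exact 95% binomial intervals. Ucn3 was seen in 80.8% and 82.6% of insulin-only cells and Crhr2 in 37.1% and 39.1% of Sst-only cells, and both shares fall with thinning.

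The few Ucn3 UMIs in Gcg-only cells stood in nearly the same proportion to insulin UMIs as in insulin-only cells. In insulin-only cells there were 0.906 Ucn3 UMIs per 1000 insulin UMIs in library 1 and 0.754 in library 2. In Gcg-only cells, where insulin made up 0.198% and 0.168% of UMIs, the ratio was 0.873 (95% Poisson interval 0.321 to 1.90) and 0.941 (0.345 to 2.05). The source of the Ucn3 UMIs in Gcg-only cells was not tested. The share of Gcg-only cells with a Ucn3 UMI was therefore not read as a share of cells expressing the gene. The ratios of 7.20 in Ppy-only cells and 6.42 in cells with none of the hormones, both in library 1, dropped to 0.971 and 1.57 without the top cell of each. In library 2 these groups stood at 0.536 and 0.608. The other groups varied, at 0.355 and 0.296 in Gcg+Ppy, 1.02 and 0.364 in Sst+Ppy and 0 and 1.53 in Sst-only cells. Each of these values rests on at most 3 Ucn3 UMIs.

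Within the insulin cells, Ucn3 changed with the insulin share. Cells with 20% to 40% of their UMIs from insulin held Ucn3 at 275 and 272 CPM, and cells above 40% held it at 432 and 351. Cells with 5% to 20% insulin stood at only 18.03 and 41.3 CPM. The 46 cells with 1% to 20% insulin, a split made after the values had been seen, held 23 Ucn3 UMIs against 120421 insulin UMIs, or 0.191 per 1000 (0.121 to 0.287). The 390 cells with at least 20% insulin had 0.825 per 1000 (0.796 to 0.855). Only 6 of the 46 low-insulin cells (13.0%) had a Ucn3 UMI, against 324 of 390 (83.1%), at median depths of 16409 and 19177 UMIs. The classes also differed in hormone pattern, since 14 of the 46 cells and 358 of the 390 were insulin-only. The 14 insulin-only cells alone held 5 Ucn3 UMIs in 2 cells, or 0.112 per 1000 insulin UMIs (0.0362 to 0.260), and the 358 had 0.839 (0.808 to 0.871).

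The other beta-cell genes given here were also lower in the low-insulin cells, by differing amounts. Their scale is not that of the Ucn3 values above, so the size of their steps cannot be compared with Ucn3. With hormone UMIs left out of the total, Mafa, a transcription factor of mature beta cells, stood at 30.5 CPM in the low-insulin cells and 1193 in the others. G6pc2, the islet glucose-6-phosphatase subunit, stood at 147 and 1898 CPM, and the glucose transporter gene Slc2a2 at 51.6 and 718. Nkx6-1, a homeodomain factor of beta cells, was at 730 and 1424 CPM, and Iapp, the peptide stored with insulin, at 31737 and 48522. Scrublet called 3 of the 46 cells doublets, and the part of doublets in this difference was not tested.

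Among cells with insulin and another hormone, Ucn3 levels are given by the hormone pattern, with no test of the differences. The 22 cells with insulin and Sst held 198 Ucn3 UMIs, at 190 CPM in library 1 and 331 in library 2, which is 0.705 and 1.22 per 1000 insulin UMIs. Their median depth was 21541 and 47226 UMIs, against 19642 and 17170 in insulin-only and 13123 and 13692 in Sst-only cells. Scrublet called 0 of these 22 doublets, and whether their barcodes held more than 1 cell was not tested further. The 20 cells with insulin and Ppy held 2 Ucn3 UMIs, both in 1 cell of library 1, at 0.0396 and 0 per 1000 insulin UMIs. Insulin made up 16.9% and 12.1% of all UMIs in the insulin and Ppy cells and 26.9% and 27.1% in the insulin and Sst cells. The 14 cells with insulin, Sst and Ppy lay between these, at 0.289 and 0.371 per 1000 insulin UMIs, and the 5 with insulin and Gcg held 1 Ucn3 UMI in each library. The patterns rest on few cells and differ in their insulin share.

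**Figure D3:**
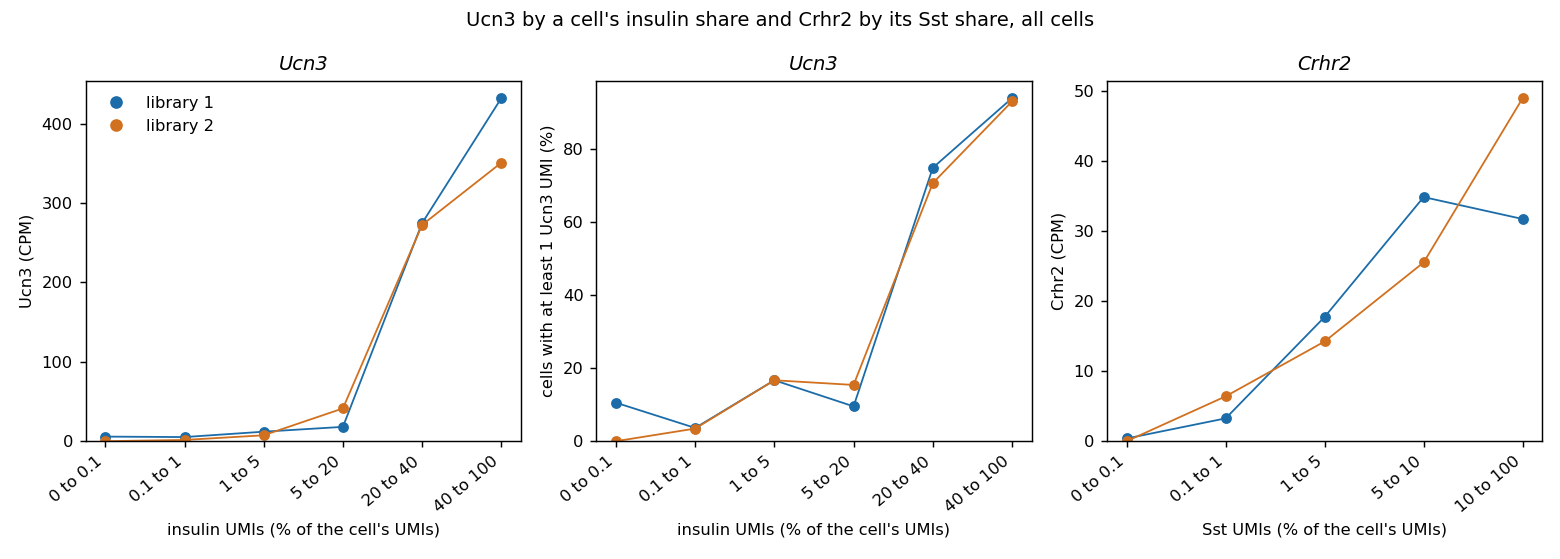
Ucn3 in CPM (left) and as the share of cells with a UMI (middle) by the insulin share of the cell, and Crhr2 in CPM by the Sst share (right), all cells, 1 line per library. Ucn3 steps from 18.03 and 41.3 CPM at 5% to 20% insulin to 275 and 272 CPM at 20% to 40%, while Crhr2 climbs from at most 0.388 CPM below 0.1% Sst to 31.7 and 49.0 CPM above 10%.

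Among insulin-only cells Ucn3 was uneven. The median cell had 6 Ucn3 UMIs in library 1 (quartiles 1 and 12) and 5 in library 2 (2 and 9.75), and the highest had 52 and 45. In library 1, 35 of 182 cells had no Ucn3 UMI and in library 2, 33 of 190. An equal Ucn3 fraction in every cell would leave about 1.06 and 1.84 cells without a UMI at these depths. The tenth of cells with most Ucn3 held 33.4% and 33.2% of its UMIs. In cells thinned to 4000 UMIs the variance was 1.67 and 1.61 times the mean, where Poisson counting around an equal level gives a ratio of 1.

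Ordered into tertiles by insulin share, the insulin-only cells held Ucn3 at 219, 390 and 431 CPM from lowest to highest tertile in library 1 and at 228, 360 and 352 in library 2. Insulin UMIs dilute the other genes, and with hormone UMIs left out the levels were 302, 637 and 847 in library 1 and 333, 623 and 742 in library 2. A Ucn3 UMI was found in 35 of 61, 55 of 61 and 57 of 60 cells in library 1 and in 40 of 64, 59 of 63 and 58 of 63 in library 2. With hormone UMIs left out, the log2 ratio of highest over lowest tertile was 1.49 and 1.16 for Ucn3, 1.25 and 1.00 for Mafa and 0.79 and 0.68 for G6pc2. It was -0.02 and -0.00 for Neurod1, a transcription factor of all islet endocrine cells, and of the 13 beta-cell genes listed Ucn3 had the highest value in each library. Median depth fell with the tertile, from 21104 to 17760 UMIs in library 1 and from 20091 to 15328 in library 2.

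**Figure D4:**
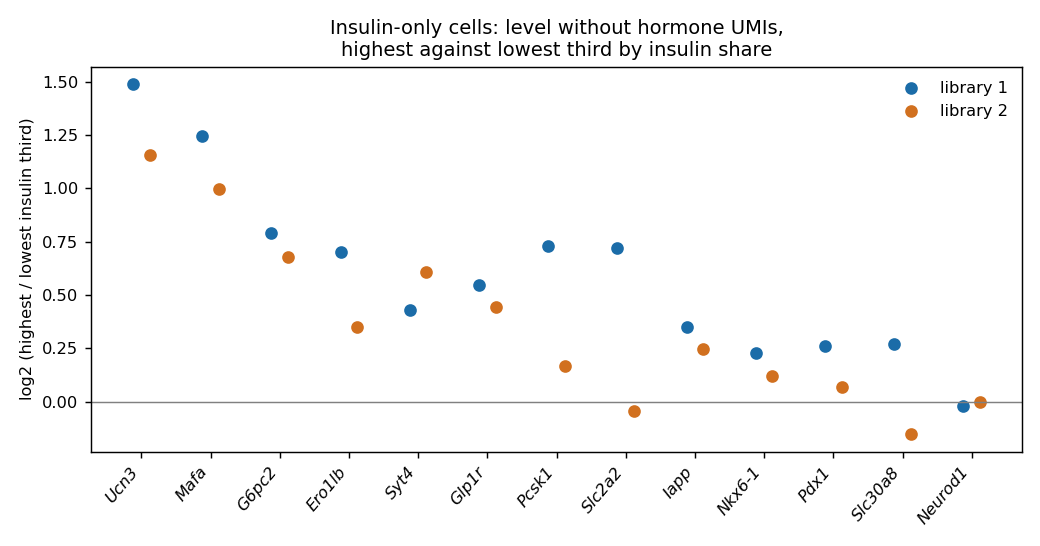
Log2 ratio of the level in the highest over the lowest insulin tertile of insulin-only cells (y axis), hormone UMIs left out of the total, for 13 beta-cell genes (x axis), 1 point per library. Ucn3 is highest at 1.49 and 1.16, Mafa next at 1.25 and 1.00, and Neurod1 lies at -0.02 and -0.00.

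Crhr2, the preferred receptor gene, was concentrated in cells with Sst. Of 144 Crhr2 UMIs in 92 cells, 136 UMIs (94.4%) lay in cells with Sst at the threshold, which were 18.3% of all cells. Sst-only cells held 18 and 17 Crhr2 UMIs, or 35.8 and 51.2 CPM (43.5 ± 10.9, SD, n = 2). Sst+Ppy cells held 45 and 33 UMIs, or 35.8 and 25.3 CPM (30.6 ± 7.38, SD, n = 2). The ratio of Sst-only over Sst+Ppy cells was 1.00 in library 1 (counting interval 0.545 to 1.76) and 2.02 in library 2 (1.06 to 3.73). Their edgeR log2 difference was 0.37 (95% interval -0.77 to 1.51, adjusted p = 0.973), in a comparison with 0.02% of genes called, and a difference within that interval was not detectable at this depth.

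Cells without Sst held almost no Crhr2. Insulin-only cells had 3 Crhr2 UMIs in library 1, all in 1 cell that also had 5 Ucn3 UMIs, and 0 in library 2. Gcg-only cells had 1 and 0, Ppy-only cells 2 and 2, and Gcg+Ppy cells 0 and 0. Over both libraries the Sst-only level was 117 times the insulin-only level, and the inverse ratio was 0.00852 with a counting interval of 0.00168 to 0.0270. The edgeR log2 difference of insulin-only over Sst-only cells was -6.00 ± 0.78 (SE, adjusted p = 9.94e-06). Sst-only over Gcg-only cells gave 7.36 ± 0.88 (edgeR adjusted p = 3.30e-06, 12.9% of genes called) and Sst-only over Ppy-only cells 4.91 ± 0.77 (edgeR adjusted p = 0.000151, 9.87% called).

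Cells with none of the hormones had 0 Crhr2 UMIs in either library. Taking 3 counts over the group as the limit a count of 0 allows, the Sst-only level was at least 52.6-fold higher. That value allows no counting error in the Sst-only UMIs, and with that error the lower limit was 40.5-fold. The edgeR adjusted p was 1.64e-06, with 44.8% of genes called. A Crhr2 UMI was present in 37.1% and 39.1% of Sst-only cells and 32.5% and 31.0% of Sst+Ppy cells, at median depths of 13123 and 13692, and 13459 and 15493 UMIs. In cells with none of the hormones, 0 of 91 and 0 of 92 had a Crhr2 UMI, which by the limit of 3 counts allows up to 3.30% and 3.26% of cells with a UMI. Thinned to 4000 UMIs, 11.4% and 17.4% of Sst-only cells kept a Crhr2 UMI, a level near that of single UMIs. Of the Sst-only cells, 22 of 35 and 14 of 23 had no Crhr2 UMI, where an equal level in every cell would leave 21.2 and 11.2. Of the Sst+Ppy cells, 52 of 77 and 49 of 71 had none, where an equal level would leave 44.8 and 45.9.

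Crhr2 was also found where another hormone accompanied Sst, and its level varied with the Sst share. It stood at 17.7 and 14.2 CPM in cells with 1% to 5% Sst and at 34.8 and 25.5 CPM in cells with 5% to 10%. The 14 cells with Gcg and Sst held 6 Crhr2 UMIs in 5 cells, and the 22 cells with insulin and Sst held 8 in 6 cells, while the 20 cells with insulin and Ppy and the 5 with insulin and Gcg held none. Per 1000 Sst UMIs, Crhr2 stood at 0.403 and 0.544 in Sst-only cells, 0.464 and 0.361 in Sst+Ppy cells and 0.444 and 0.362 in insulin and Sst cells. The tertiles of Sst share within Sst-only cells gave no common order, at 40.4, 33.6 and 34.2 CPM in library 1 and 23.8, 36.4 and 104 in library 2, with 3 to 10 UMIs in each. Sst-only cells also carried acinar-cell markers at 280 and 139 CPM and, in library 1, endothelial markers at 453 CPM against 33.1 in library 2. Acinar markers were similar in Sst+Ppy cells, at 232 and 193 CPM, and in cells with insulin plus another hormone, at 179 and 156. Insulin-only cells had 3.44 and 6.42 CPM. In Sst-only cells Cpa1 and Pnlip of the 4 acinar markers were at 0 and all 5 endothelial markers were detected. The part of these RNAs in the Crhr2 levels was not tested.

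Crhr1 was at the edge of detection. It had 15 UMIs in 12 cells, did not pass the filter on low counts, and so has no test of the kind given above. Insulin-only cells held 5 Crhr1 UMIs in each library, or 1.15 and 1.23 CPM (95% Poisson intervals 0.373 to 2.68 and 0.401 to 2.88), in 4 of 182 and 4 of 190 cells. Gcg-only, Ppy-only, Gcg+Ppy and Sst+Ppy cells held 0 in both libraries. Against Gcg-only cells the insulin-only level was at least 2.88-fold higher, and against Ppy-only cells at least 1.76-fold, each with the limit of 3 counts over the group and no allowance for counting error in the 10 UMIs. With that error the lower limits were 1.94-fold and 1.19-fold over both libraries, and below 1 in each library alone. Fitted without the filter on low counts, neither difference was called (edgeR adjusted p = 0.0756 and 0.217). Sst-only cells held 1 and 0 Crhr1 UMIs, and no difference from insulin-only cells was detectable, with a ratio of 0.994 (0.141 to 43.1). The 2 remaining UMIs in cells with none of the hormones were in 1 cell of 177513 UMIs.

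The cells with Crhr1 were mostly cells with Ucn3. Of the 12, 10 had insulin at the threshold and the same 10 also had Ucn3, with 4 to 29 Ucn3 UMIs each. The median depth of these 10 was 28521 UMIs, above the 18735 of insulin-only cells. Of all 372 insulin-only cells, 304 had a Ucn3 UMI, so the overlap was not read as a link between the genes. No cell had UMIs of both receptors. Ucn3 and Crhr2 were found together in 11 cells, 7 of which had both insulin and Sst at the threshold and 1 of which was called a doublet. The median depth of these 11 was 26998 UMIs.

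Other members of the peptide family were nearly silent. Ucn, which encodes urocortin, and Ucn2, which encodes the CRHR2 ligand urocortin 2, had 1 UMI each in all cells, and Crh was not listed in either table. Crhbp, whose protein binds and sequesters corticotropin-releasing factor, had 29 UMIs, of which 14 were in insulin-only cells (1.38 and 1.98 CPM) and 6 in 1 cell with none of the hormones. Of the 7 family genes, Ucn3 and Crhr2 alone passed the filter on low counts.

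Somatostatin is the hormone whose release CRHR2 signalling is known to raise, and the genes of its receptors differed between the same groups. Sstr3 was present in all endocrine groups, at 166 and 175 CPM in insulin-only cells, 112 and 117 in Gcg-only cells and 151 and 175 in Sst-only cells, and at 14.4 and 6.93 CPM in cells with none of the hormones. Sstr2 had 90 UMIs in Gcg-only cells (11.2 and 13.5 CPM) and 0 in insulin-only and Sst-only cells. The Gcg-only level was at least 34.7-fold higher than the insulin-only level (edgeR adjusted p = 6.55e-05) and at least 3.45-fold higher than the Sst-only level (edgeR adjusted p = 0.0218). Sstr1 had 10 UMIs in Sst-only cells (9.94 and 15.1 CPM) and 0 in insulin-only and Gcg-only cells, so the Sst-only level was at least 33.6-fold and 29.0-fold higher (edgeR adjusted p = 0.00235 and 0.00206). These lower bounds take 3 counts as the limit of each 0 and allow no counting error in the 90 and 10 UMIs. The Sstr1 difference from insulin-only cells and the Sstr2 difference between Sst-only and Gcg-only cells were not called at a hormone threshold of 0.5%, nor was the latter with DESeq2. Sstr4 had 1 UMI and Sstr5 had 4, all 4 in a single cell.

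Sstr3 shows how scaling enters such a comparison. Its edgeR log2 difference was 0.93 for insulin-only over Gcg-only cells (adjusted p = 2.40e-05) and 0.82 for insulin-only over Sst-only cells (adjusted p = 0.00125), although its CPM overlapped in the latter pair. Insulin took 39.3% of all UMIs in insulin-only cells, so differences on the CPM scale were lower by a median of 0.35 (insulin-only over Gcg-only) and 0.72 (over Sst-only) than in the fit. For Ucn3 and Crhr2 these shifts are small beside the differences given above.

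**Figure D5:**
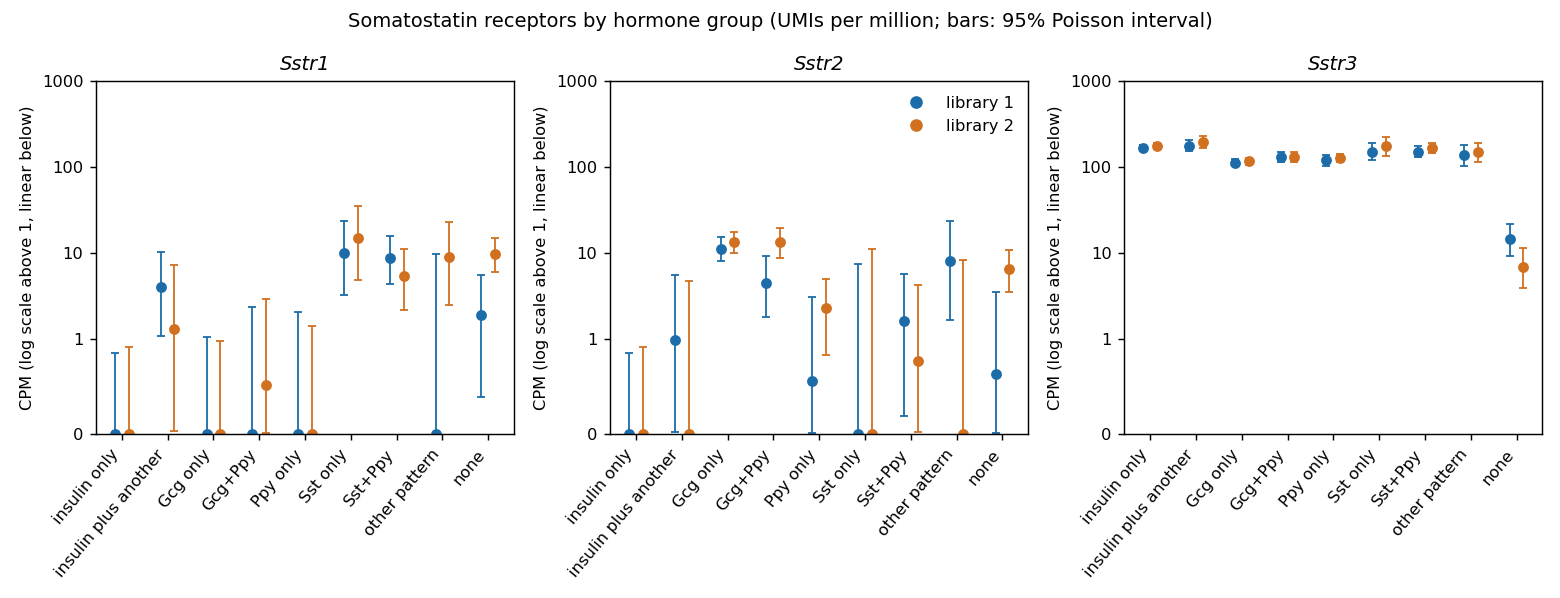
Level of the somatostatin receptor genes Sstr1, Sstr2 and Sstr3 in CPM (y axis, log scale above 1 and linear below) by hormone group (x axis), 1 point per library with its 95% Poisson interval. Sstr2 stands at 11.2 and 13.5 in Gcg-only cells and 0 in insulin-only and Sst-only cells, Sstr1 at 9.94 and 15.1 in Sst-only cells, and Sstr3 at 112 to 194 in all groups with a hormone.

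Downstream of CRHR2 lie Gs, adenylyl cyclases, protein kinase A and the cyclic AMP sensors of the Epac type. Of a list of 21 such genes, in which the transcription factor genes Creb1 and Crem were included, 20 were tested. Between insulin-only and Gcg-only cells 3 were higher in insulin-only cells and 4 in Gcg-only cells, where 12.9% and 11.9% of all genes were called in those directions, and the list's median log2 difference was -0.07 against 0.00 for all genes. Adcy1, an adenylyl cyclase gene, had 103 UMIs in Gcg-only cells and 1 in insulin-only cells (log2 difference -6.06, edgeR adjusted p = 0.000549). Gnas, the gene of the Gs alpha subunit, stood at 42.0 ± 4.86 CPM in insulin-only and 668 ± 13.8 in Gcg-only cells (SD, n = 2), a log2 difference of -3.63 (edgeR adjusted p = 7.82e-16). Adcy5, another cyclase gene, had 4 and 45 UMIs (log2 difference -3.24, edgeR adjusted p = 0.00533).

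In Sst-only cells, where Crhr2 was found, Gnas stood at 934 ± 68.0 CPM (SD, n = 2). Against insulin-only cells 4 genes of this list were higher in Sst-only cells and 2 in insulin-only cells, beside 7.26% and 7.89% of all genes. The median log2 difference of insulin-only over Sst-only cells was -0.34 for the list and 0.02 for all genes. The cyclase genes Adcy8 and Adcy2 had 7 and 11 UMIs in Sst-only cells and 0 and 3 in insulin-only cells, with edgeR adjusted p of 0.0152 and 0.0178. The Adcy2 difference was not called at hormone thresholds of 0.5% and 5%. Gnas gave a log2 difference of -3.73 for insulin-only over Sst-only cells (edgeR adjusted p = 1.05e-15). Against Gcg-only cells 3 were higher in Sst-only cells, Adcy2, Adcy8 and Rapgef3, the last an Epac gene. In Gcg-only cells 2 were higher, and the shares of all genes were 6.73% and 6.17%. The median log2 difference of Sst-only over Gcg-only cells was 0.13 for the list and -0.03 for all genes. The Gnas locus gives rise to several transcripts that share exons, so its counts are uncertain as to the transcript.

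Arrestins and receptor kinases end the signal of such receptors. Between insulin-only and Sst-only cells 3 of 7 were higher in insulin-only cells and 1 in Sst-only cells, beside 7.89% and 7.26% of all genes. Arrb1, the gene of an arrestin, was higher in Sst-only cells, at 12.0 ± 0.0887 against 0.591 ± 0.138 CPM (SD, n = 2, log2 difference -3.49, edgeR adjusted p = 0.00171). Grk5, Arrb2 and Grk3 were higher in insulin-only cells, Grk5 by 3.34 (edgeR adjusted p = 1.97e-05). Grk3 rests on the scaling, since its CPM was 126 ± 8.28 in insulin-only and 130 ± 21.6 in Sst-only cells (SD, n = 2), the other way round. Between insulin-only and Gcg-only cells Grk5 was higher and Arrb2 lower in insulin-only cells, 1 of 7 each way beside 12.9% and 11.9% of all genes. Between Sst-only and Gcg-only cells Arrb1 was higher and Arrb2 lower in Sst-only cells, 1 of 7 each way beside 6.73% and 6.17%. Both Arrb2 differences from insulin-only cells were not called with DESeq2. The list's medians were 0.27, -0.04 and -0.24 in these 3 comparisons in the order given, against 0.02, 0.00 and -0.03 for all genes.

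Ucn3 was set beside 12 other beta-cell genes, not all of which are confined to mature beta cells. With Ucn3 included, 10 of 13 were higher in insulin-only than in Gcg-only cells and 0 lower, and 12 of 13 were higher than in Sst-only cells, where 12.9% and 7.89% of all genes were called in that direction, with median log2 differences of 6.49 and 5.60 against 0.00 and 0.02 for all genes. Mafa had the largest difference in both, 8.86 ± 0.46 (SE, edgeR adjusted p = 1.73e-07) over Gcg-only and 9.88 ± 0.69 (edgeR adjusted p = 4.76e-06) over Sst-only cells, followed by Ucn3. Glp1r, the receptor gene of the incretin GLP-1, came next over Gcg-only cells at 7.84 and G6pc2 over Sst-only cells at 8.05. Neurod1, Slc30a8 and Syt4 were not called over Gcg-only cells, and Syt4 was not called over Sst-only cells. Slc30a8 stood at 782 ± 42.6 CPM in insulin-only and 971 ± 17.0 in Gcg-only cells (SD, n = 2). Genes of granule cargo and its processing, with which the peptide is stored, were called in 9 of 9 cases between insulin-only and Gcg-only cells, 5 higher and 4 lower in insulin-only cells, beside 12.9% and 11.9% of all genes, with a median of 0.93. Against Sst-only cells 4 of these 9 were higher and 1 lower in insulin-only cells, beside 7.89% and 7.26% of all genes, with a median of 0.21. Pcsk1, the prohormone convertase gene, had the largest difference over Gcg-only cells at 7.44 (edgeR adjusted p = 2.45e-05).

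The genes with the pattern most like Ucn3 over the 16 sums of group and library were Gm6999, Sytl4, Cib3, Trpm5 and Mnx1, with a Pearson r of log2(CPM + 5) from 0.97 to 0.98 among 13447 genes. Sytl4 encodes a granule-binding synaptotagmin-like protein, Trpm5 a cation channel and Mnx1 a homeodomain factor. For Crhr2 they were Ly6h, Dscam, Lmo3, Nbl1 and Neurog3, with r from 0.97 to 0.99. Dscam encodes a neural adhesion molecule, and Neurog3 the transcription factor that specifies endocrine precursors, here at 41.7 and 60.2 CPM in Sst-only cells and 1.15 and 2.47 in insulin-only cells. Among the genes most like Crhr1 were Grin1, H1f3, Fam135b and Ppp1r3d, with r of 0.77 to 0.82 that rests on 15 UMIs. The sums share libraries and depth, so these values describe likeness and carry no test.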

How the data were processed

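Each library's deposited file holds UMI counts for every gene and cell, which the authors made with their Cytonaut software from reads aligned to exons only. The submitters' processing notes name UMI-tools, Seurat and GRCm38. The lowest cell had 4704 UMIs, the libraries shared 0 barcodes, and a gene missing from 1 table was set to 0 there. CPM, thinned values and ratios were computed from these counts in Python 3.11.15.

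Counts summed per hormone group and library (16 sums, 8 residual degrees of freedom) were compared by the quasi-likelihood test of edgeR 4.0.16 under R 4.3.3, with TMM scaling, filterByExpr and Benjamini-Hochberg adjustment at 0.05. The hormone genes were not tested, which left 14970 genes. Exact permutation of 2 against 2 libraries cannot give p below 0.333, so shares were not tested. Sums of different groups come from the same preparation, and p-values measure technical spread only. The library number marks the shared library and served as a block in an alternative. Scrublet (scanpy 1.11.5) called 8 cells in each library doublets, which were kept. Shares carry Clopper-Pearson and levels Poisson intervals, at 95%.

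The fit was tested on simulated counts, drawn with a smaller spread between sums than the fit found in the data. The changed genes in them had more UMIs than Crhr2 or Crhr1, so that test does not cover counts as low as theirs. Members and lists were chosen with earlier results of these data known. Named genes were the members, the rest of their family, the 3 largest called differences of each list in the comparison described, and the 5 genes most correlated with each member among those with at least 50 UMIs in each library. A gene that this rule also named is not reported here. Other genes named were chosen after their values were seen. Ero1b is listed under its older symbol Ero1lb. Protein sequences were not analysed here.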

Additional observations from a re-analysis of the deposited data

How the results depend on the processing

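The Ucn3 differences of insulin-only over Gcg-only, Sst-only and Ppy-only cells and the Crhr2 differences of Sst-only over insulin-only, Gcg-only and Ppy-only cells were recomputed with hormone thresholds of 0.5%, 2% and 5%, DESeq2, hormone genes dropped, no filter on low counts, a replicate block, only the groups compared, doublets removed, and the deepest 5% of cells removed. All 60 values kept direction and call, with adjusted p up to 0.0264 (Ucn3 over Ppy-only cells). The size of the differences was less stable. For Ucn3 the log2 difference ranged from 7.58 to 7.99 over Gcg-only, 7.96 to 12.7 over Sst-only and 5.43 to 8.16 over Ppy-only cells. For Crhr2 it ranged from -6.26 to -3.94 for insulin-only over Sst-only cells. Sst-only cells gave 4.57 to 7.97 over Gcg-only and 4.31 to 5.39 over Ppy-only cells. The replicate block changed no call of a member and gave 7.93 for Ucn3 over Gcg-only cells (edgeR adjusted p = 0.000257). With only the groups compared, 5703 of all genes were called between insulin-only and Gcg-only cells, against 3716.

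Per single library, with no test, the log2 CPM ratio was 7.62 to 7.63 for Ucn3 over Gcg-only cells, 6.69 over Sst-only cells in library 2 (library 1 had 0) and 4.74 to 8.68 over Ppy-only cells. For Crhr2 it was -5.70 for insulin-only over Sst-only and 6.96 for Sst-only over Gcg-only cells in library 1 (library 2 had 0), and 5.01 to 6.08 over Ppy-only cells. Crhr2 in Sst-only over Sst+Ppy cells was -0.00058 without library 2 and 1.01 without library 1. Shares of cells moved most with thinning to 4000 UMIs, to 62.6% from 81.7% for Ucn3 in insulin-only cells, 14.4% from 38.1% for Crhr2 in Sst-only cells and 0.538% from 2.15% for Crhr1 in insulin-only cells. Hormone thresholds gave 78.6% (5%) for Ucn3, 43.0% (0.5%) and 34.0% (5%) for Crhr2 and 2.40% (5%) for Crhr1. Of 382 refits of list genes 9 lost the call, with adjusted p of 0.131 for Sstr1 in insulin-only against Sst-only cells at 0.5%, 0.0526 and 0.0537 for Sstr2 in Sst-only against Gcg-only cells at 0.5% and with DESeq2, 0.0548 and 0.0509 for Adcy2 in insulin-only against Sst-only cells at 0.5% and 5%, and from 0.102 to 0.208 for Arrb2. Crhr1, with 15 UMIs, could be fitted only without the filter, where insulin-only over Gcg-only cells gave 4.70 (edgeR adjusted p = 0.0756).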
